A study of Caenorhabditis elegans with 2 samples.

Results

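The genes described here are 5 ubiquitin ligase genes of the HECT family in C. elegans, eel-1, wwp-1, hecd-1, etc-1 and oxi-1, out of 19973 protein-coding genes of the nuclear chromosomes. They were taken by name from the Ensembl annotation of WBcel235, the assembly that the peak files call ce11, and were picked with earlier results of these data in view, because the peaks upstream of eel-1 and wwp-1 are among the strongest of the series. The data are chromatin immunoprecipitation sequencing (ChIP-seq) peaks from 2 biological replicate libraries of 1 group. Whole animals of strain RW12275 were taken at 48 h, as L4 larvae grown from L1 animals that had been starved after bleaching, and CRISPR had put TY1, EGFP and 3xFLAG tags on Y75B8A.6 at its own locus on chromosome III (allele st12275). Per the labels, chromatin was sonicated to 200 to 800 bp and precipitated with an antibody against GFP. There was no second condition, and untagged animals were not analysed here, so peaks that need the tagged protein and peaks that do not cannot be told apart. The peak lists carry no read totals, so the depth of each library is unknown.

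HECT ligases are the last enzymes of a relay that marks proteins with ubiquitin. An E1 enzyme activates ubiquitin, an E2 enzyme carries it, and a HECT ligase takes it onto a cysteine of its own before it passes it to the substrate, whereas RING-type ligases bring the E2 and the substrate together. Of the 5 genes, eel-1 encodes the worm relative of human HUWE1, a very large ligase, and wwp-1 a ligase of the NEDD4 type with WW domains that has been tied to lifespan under dietary restriction in worms. The gene hecd-1 encodes another large HECT ligase, etc-1 the relative of human UBE3C and oxi-1 that of human UBE3B.

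A peak was given to a gene when its summit lay from 1000 bp upstream to 300 bp downstream of any transcript start, here called the window. The authors deposited 4 thresholded lists, which keep the peaks that repeat between paired peak sets, and 4 ranked lists of candidates, most of them weak. The larger thresholded list of the series, called the main list, held 933 peaks, the conservative list 798, and the lists of replicate 1 and replicate 2 held 343 and 345. The signal is a value that the authors' peak caller gave on an unstated scale, so signals are compared within a list only. The score, at most 1000, follows the irreproducible discovery rate (IDR), and no peak of a thresholded list scored under 830. Below, a gene is called bound only in the sense that a main-list summit lay in its window.

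In the main list eel-1 and wwp-1 had a summit in the window, and hecd-1, etc-1 and oxi-1 had none. These are 2 of the 5 genes, where 2.33% of all protein-coding genes had one, and since the genes were chosen from these peaks the comparison is a description only. The same 2 genes had a summit in the conservative list (1.97% of all protein-coding genes), in the replicate 1 list (0.891%) and in the replicate 2 list (0.946%), so each of them was present in all 4 thresholded lists and each of the other 3 in none.

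The gene eel-1 (WBGene00022069, minus strand of chromosome IV, 3032713 to 3050104) carried a pair of peaks in its upstream sequence. The nearer, at chrIV:3050351-3050606, had a signal of 154.2 in the main list, 17th of 933, and its summit lay 375 bp upstream of the nearest eel-1 start. The farther, at chrIV:3050771-3051026, had a signal of 78.2, 224th of the list, with its summit 795 bp upstream. Both summits were intergenic, 420 bp apart, and no start of any other gene, coding or noncoding, was nearer to them. Of the 466 genes with a main-list summit, 21 (4.51%) had more than 1.

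Their sequences are shown because they share a repeat. They are written 5′ to 3′ on the strand of eel-1, read from the RefSeq copy of WBcel235, and the capitals mark a 10-base word, CCCCTTTTCG, and its reverse complement. It was the word of that length found most often in the nearer peak, and it was picked after that sequence had been read.

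eel-1 nearer peak, chrIV:3050351-3050606, minus strand: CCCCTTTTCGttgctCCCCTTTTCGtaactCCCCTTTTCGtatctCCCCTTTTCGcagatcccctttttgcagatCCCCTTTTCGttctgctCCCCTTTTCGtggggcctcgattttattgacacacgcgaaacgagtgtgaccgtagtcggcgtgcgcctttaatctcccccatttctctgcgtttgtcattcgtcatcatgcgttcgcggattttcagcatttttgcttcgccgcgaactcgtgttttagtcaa

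eel-1 farther peak, chrIV:3050771-3051026, minus strand: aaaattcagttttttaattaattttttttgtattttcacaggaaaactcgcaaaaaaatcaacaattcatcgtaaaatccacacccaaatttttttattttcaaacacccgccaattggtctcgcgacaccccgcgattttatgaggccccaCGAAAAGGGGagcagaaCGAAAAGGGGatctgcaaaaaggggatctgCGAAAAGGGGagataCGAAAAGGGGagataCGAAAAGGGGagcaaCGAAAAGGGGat

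The nearer peak held the word 6 times, always in the direction shown first, and the farther peak held it 6 times, always as the reverse complement. The copies form the arms of an inverted repeat, 370 bp from end to end with 166 bp between the arms, and 83 bases of one peak in a row recur in reverse complement in the other. The main-list summits lay not in the arms but just outside the pair, 26 bp from the nearer arm and 25 bp from the farther. Both peaks were 256 bp wide with the summit at the midpoint, as in every main-list peak of that width at these repeats, so a summit here is the centre of a peak of fixed width.

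**Figure D1:**
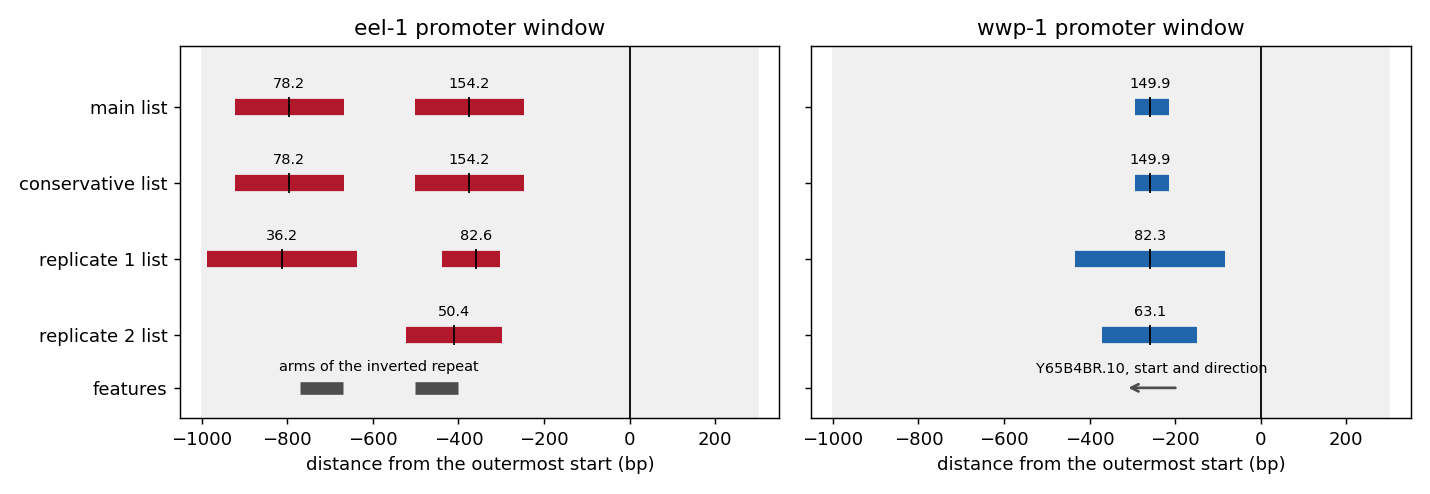
Peaks of the 4 thresholded lists (rows) in the windows of eel-1 (left) and wwp-1 (right), by distance in bp from the outermost start, with transcription to the right. Bars are peaks, ticks are summits, numbers are signals within each list, and grey shading is the window. The bottom row shows the arms of the inverted repeat upstream of eel-1 and the noncoding gene Y65B4BR.10 at wwp-1. The farther eel-1 peak has no bar in the replicate 2 list.

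The nearer eel-1 peak was present in both libraries. Its signal was 82.6 in replicate 1 (19th of 343 thresholded peaks) and 50.4 in replicate 2 (88th of 345), and its score was 1000 in each. The replicate summits lay 16 and 36 bp from that of the main list. The replicate 2 summit, at chrIV:3050515, fell inside the nearer arm of the repeat, which runs from 3050505 to 3050606. The farther peak had a signal of 36.2 in replicate 1 (287th of 343, score 1000). In replicate 2 it was a candidate only, with a signal of 28.9 and a score of 482, under the 830 of the thresholded list. The nearer peak was thus the stronger in each library, by a factor of 2.28 in replicate 1, 1.74 in replicate 2 and 1.97 in the main list. The third eel-1 candidate lay over a coding exon, 64 bp downstream of a start, with a signal of 28.5 and a score of 152 in the ranked list behind the main list, and it was in no thresholded list.

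The repeat upstream of eel-1 has copies elsewhere, and 8 of them also carried main-list peaks with that of eel-1 counted. In the whole genome the word occurred 571 times. Runs of 4 or more copies in 1 direction, at most 150 bp from one to the next, made 74 arms, and 32 pairs of arms faced each other within 500 bp. A main-list summit lay in or within 500 bp of 8 of the 32 pairs (25%). The counts were 5 for a conservative-list summit, 3 for a replicate 1 summit and 5 for a replicate 2 summit. The share of other stretches of this length with a summit was not computed, so the 25% has no background beside it. The eel-1 pair gave the word, and eel-1 was chosen for its strong peaks, so its first place here is a description only. That pair was the only one with 2 main-list summits and had the highest main-list signal of the 8. The next was the pair at rps-24, a gene of the small ribosomal subunit, with a signal of 104.0 (chrIV:385438-385693). Of the 9 main-list summits at these pairs, 7 lay just outside the pair, 24 to 38 bp from the arm. Over all 933 main-list peaks, 10 (1.07%) held 4 or more copies of the word within 150 bases of the summit. How reads from such repeated sequence were placed is not given in the sources used here, and its part in these signals was not tested.

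**Figure D2:**
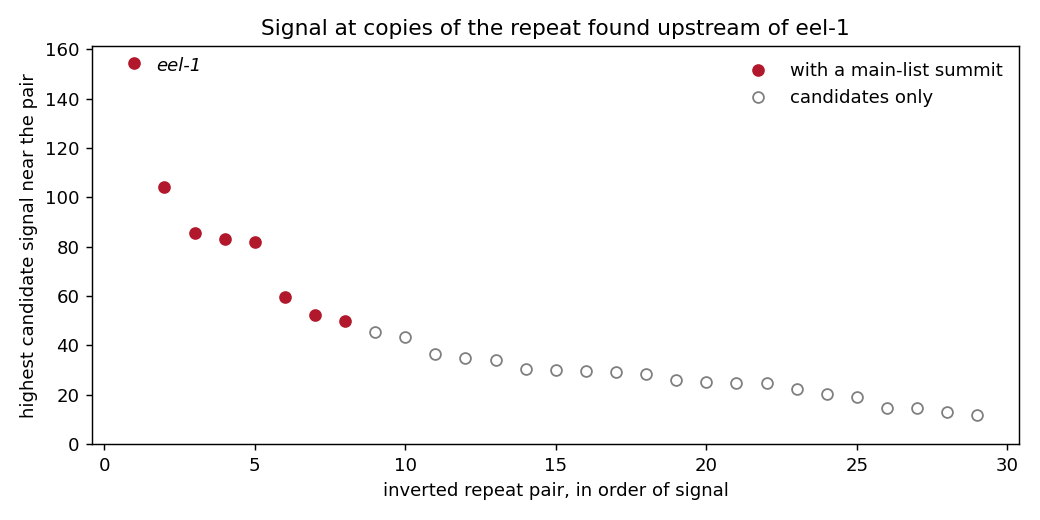
Highest candidate signal in or within 500 bp of each inverted repeat pair (vertical axis, ranked list behind the main list, scale not stated), for the 29 of 32 pairs with a candidate, in order of signal (horizontal axis). Filled points are the 8 pairs with a main-list summit, from 49.8 to 154.2 at eel-1, and open points are pairs with candidates only, the highest of them at 45.5.

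The gene wwp-1 (WBGene00007009, plus strand of chromosome I, 537122 to 542204) had 1 main-list peak, at I 536827 to 536908, 82 bp wide against a median of 256 bp in that list. Its signal was 149.9, 22nd of 933, and its summit lay 258 bp upstream of the wwp-1 start. The signal was 82.3 in replicate 1 (20th of 343) and 63.1 in replicate 2 (39th of 345), with scores of 1000. The narrow width was not seen in the lists of the single libraries. There the peak was 350 bp wide in replicate 1 and 224 bp in replicate 2, the median width of each list. The summits of the libraries agreed more closely than at eel-1, at 0 and 1 bp from that of the main list. There was no copy of the eel-1 word within 150 bases of this summit.

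The wwp-1 summit was nearer to another start. It lay in the exon of Y65B4BR.10, a noncoding RNA gene of 128 bp on the opposite strand, 67 bp from its start, and that start and wwp-1 point away from each other, with 190 bp between the genes. When each summit was given only to the gene of any kind with the nearest start, wwp-1 lost its peak and eel-1 kept its peaks. When only protein-coding starts competed, wwp-1 kept it, since icd-2, which ends 534 bp upstream on the same strand, starts farther away. Which of the 2 genes the peak belongs to cannot be told apart from these lists.

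**Figure D3:**
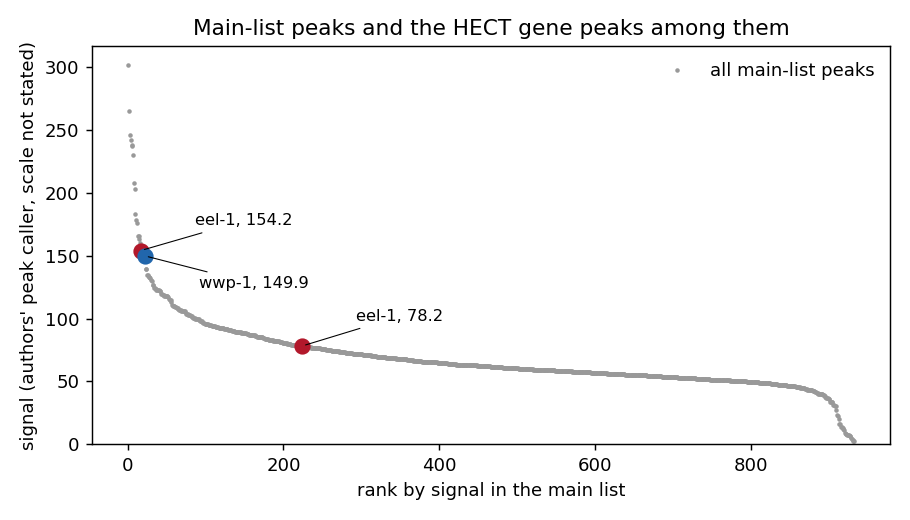
Signal (vertical axis, value of the authors' peak caller) by rank (horizontal axis) for the 933 main-list peaks in grey, with the 3 peaks of the HECT genes marked. The nearer eel-1 peak (154.2) and the wwp-1 peak (149.9) stand 17th and 22nd on the steep part of the curve, and the farther eel-1 peak (78.2) stands 224th, above the list median of 61.7.

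Every main-list peak is also in a longer ranked list, with the same signal, so the places of eel-1 and wwp-1 in it follow from how they were chosen and are a description. A candidate lay in the window of 4 of the 5 HECT genes in the ranked list behind the main list, where 77.9% of protein-coding genes had one. The shares were 75.7% in the ranked list behind the conservative list, 62.8% in that of replicate 1 and 58.1% in that of replicate 2, with 4 of the 5 genes in each, so the presence of a candidate says little. Taking the best candidate of each gene, eel-1 stood 16th and wwp-1 18th of the 15558 genes with one. They stood 18th and 19th of 12539 genes in replicate 1, and 62nd and 32nd of 11612 in replicate 2. Strong candidates are not all in the main list: 34 of the 50 candidates above the nearer eel-1 peak in the ranked list were not in the main list, and so were 35 of the 56 above the wwp-1 peak.

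The candidates of hecd-1 (WBGene00016405, minus strand of chromosome IV, 7134345 to 7144720) were close to those of a usual gene. The best had a signal of 24.0, with a score of 157, at IV 7144420 to 7144675, where the median of the best candidates over all genes was 22.3. Its summit lay in a coding exon, 22 bp downstream of a start. Its best candidate was 14.8 in replicate 1 and 14.5 in replicate 2, where the medians over genes were 14.6 and 13.0. These 2 best candidates were not the same site, since the first lay 903 bp upstream and the second 33 bp upstream of the nearest start. Replicate 1 also had a weaker candidate, with a signal of 10.3, at IV 7144332 to 7144681. It overlapped the replicate 2 candidate at IV 7144492 to 7144715.

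Of the 3 genes without a thresholded peak, oxi-1 (WBGene00003898, plus strand of chromosome III, 10858284 to 10866946) had the strongest candidate, with a signal of 32.5 at III 10857740 to 10857995, above 82.9% of the genes with one. Its score was 72 in the ranked list behind the main list and 253 in that behind the conservative list, both far under 830, and its summit lay in an intron of the gene upstream, Y39A1C.1. A second candidate, 69 bp downstream of the start, had a lower signal, 22.2, and a score of 149 in the first of them. The best candidate in replicate 1 had a signal of 14.96, and replicate 2 had none in the window. In the first of these lists signal and score thus put the pair in opposite orders, and in the second, where the downstream candidate scored 72, in the same order.

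The gene etc-1 (WBGene00008429, plus strand of chromosome II, 8664833 to 8669154) had no candidate in the window in 3 of the 4 ranked lists. In replicate 2 it had a pair, with signals of 4.84 and 2.52 and scores of 16, standing 52602nd and 55500th of 56066. Both lay over coding exons of eif-2Bepsilon, the gene upstream, and 16 is the lowest score of that list.

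**Figure D4:**
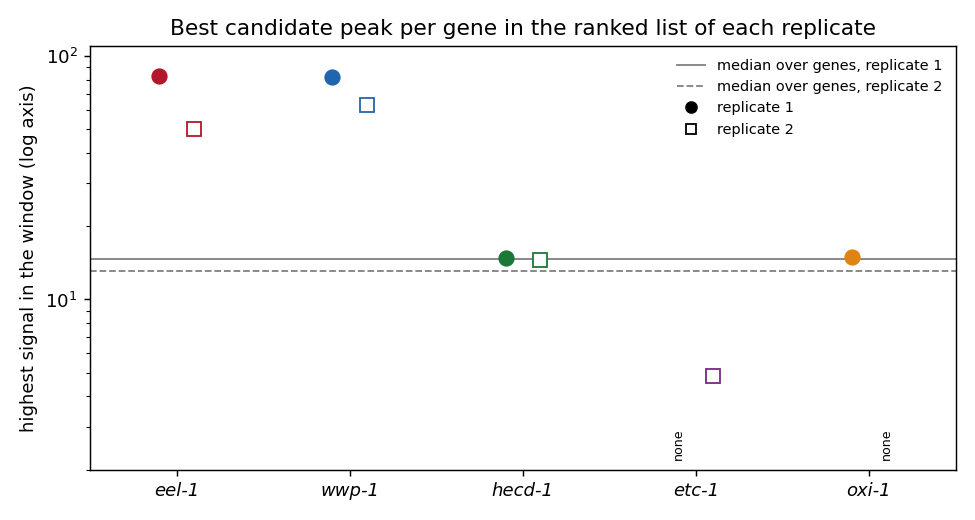
Highest candidate signal in the window of each HECT gene (vertical axis, log scale) in the ranked list of replicate 1 (filled circles) and replicate 2 (open squares); lines are medians over all genes with a candidate, and "none" marks no candidate. The values of eel-1 (82.6 and 50.4) and wwp-1 (82.3 and 63.1) lie far above both lines, hecd-1 lies near them, oxi-1 has a value in replicate 1 only and etc-1 in replicate 2 only.

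No main-list summit lay within the gene body of any of the 5 genes. From the starts of hecd-1, oxi-1 and etc-1 the nearest main-list summit was 35795, 38388 and 60893 bp away. Within the gene bodies the ranked list behind the main list held 29 candidates at eel-1, 9 at wwp-1, 21 at hecd-1, 7 at etc-1 and 9 at oxi-1. These are 1.67, 1.77, 2.02, 1.62 and 1.04 per kb, and the density over all genes was not computed. Among these candidates the highest signal, 43.2, was in etc-1, where no candidate in the gene body scored above 481.

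The genes differ in what lies upstream. The nearest protein-coding gene upstream of eel-1, ivph-3, is 3623 bp away and on the opposite strand, as is C34D4.4 at 4640 bp from hecd-1. By contrast eif-2Bepsilon ends 111 bp before etc-1, and Y39A1C.1 ends 97 bp before oxi-1, both on the same strand as the HECT gene. All 5 genes are long and encode long proteins. Their spans run from 4322 bp (etc-1) to 17392 bp (eel-1), against a median of 2027 bp over all protein-coding genes and 2356 bp over those with a main-list summit. Their longest proteins run from 794 residues (wwp-1) to 4185 residues (eel-1), against medians of 329 and 349.5 residues. Length did not separate the 2 bound genes from the others, since wwp-1 has the shortest protein and hecd-1, with 2650 residues, the second longest.

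The 150 bases on either side of the nearer eel-1 summit had a GC content of 49.2%, higher than 87.5% of main-list peaks. The farther eel-1 summit had 39.9% and the wwp-1 summit 40.2%, close to the median of 41.5%. Short motifs were searched over the same stretch on both strands. TTTCAG, the letters of a splice acceptor, was found once at the nearer eel-1 summit, and 306 of the 933 main-list peaks held it. TGATAA, bound by GATA factors, was found in 2 places and TATAAA in 1 place at the wwp-1 summit, and 223 and 215 of the 933 main-list peaks held them. None of the 3 summits held CACGTG, the E-box, or GTTCGANNC, the B box of tRNA promoters, which 100 and 159 of the 933 main-list peaks held. The farther eel-1 summit held none of the 5 motifs.

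By likeness of rank in both libraries, 3 genes were set beside each bound gene out of 101 others present in the same 4 thresholded lists. The measure is the distance in the percentage rank of the best candidate over the ranked lists of the 2 replicates. For eel-1 (top 0.0662% and 0.264%) they were egg-5 (0.102% and 0.268%), mtcu-2 (0.123% and 0.282%) and K07C5.13 (0.124% and 0.250%). The egg-5 peak, unlike those of eel-1, has the noncoding starts of R12E2.18 and sls-2.4 nearer to it. For wwp-1 (0.0675% and 0.153%) they were sec-61.G and F32D8.13, which share 1 peak (0.0543% and 0.134%), and rpl-35, a gene of the large ribosomal subunit (0.0860% and 0.187%). Only 2 libraries enter this measure.

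The 3 other HECT genes of the annotation, herc-1 and Y92H12A.2 among them, had no summit in the window in any of the 4 thresholded lists, where 2.33% of all protein-coding genes had one in the main list. The first is related to human HERC1. The best candidates in the ranked list behind the main list had signals of 30.9 for herc-1 and 24.5 for Y92H12A.2, with scores of 248 and 174.

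Upstream of the ligases in the relay, 1 of 3 ubiquitin and E1 genes and 3 of 23 E2 and E2-like genes had a main-list summit, beside a background of 2.33%. The first was uba-1, the gene of the ubiquitin-activating enzyme, with a signal of 58.4 (IV 9995070 to 9995325). The E2 genes were ubc-6 (74.4, II 7478808 to 7479063, a summit shared with aka-1), ubc-8 (61.7, IV 2707264 to 2707519) and let-70 (47.3, IV 11082011 to 11082266). Among these 4 genes ubc-6 was in the lists of both replicates and the other 3 in neither.

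Of 25 other ligase genes 2 were bound, brc-1, the worm BRCA1 gene, with 2 summits (69.2, III 3854913 to 3855168, and 58.7, III 3862944 to 3863199), and prp-19, whose product is also a splicing factor (67.9, III 5172537 to 5172792). The stronger brc-1 summit lay nearer to the start of the pseudogene C36A4.12, at 31 bp, and the weaker lay 104 bp upstream of a brc-1 start with no other start nearer. The prp-19 summit lay nearer to the start of K10D2.5, at 55 bp, and was shared with the windows of K10D2.5 and emb-1. Both brc-1 and prp-19 were in the replicate 1 list and neither was in the replicate 2 list. The conservative list added ncl-1 (42.2), a gene of the TRIM-NHL type. Whether each gene listed here as a ligase encodes an active one was not examined. Of 33 proteasome genes, rpn-11, which encodes the deubiquitinase of the lid (49.3, II 4044437 to 4044692), and rpn-3 (45.6, III 8447068 to 8447323, shared with hsp-110) were bound, and neither was in the conservative list. The rpn-3 summit lay nearer to the start of the noncoding RNA gene C30C11.14, at 101 bp against 157 bp. No summit of the main list fell in the windows of the 20 cullin-RING genes or of 20 deubiquitinase genes. The background for each of these lists was the 2.33% of all protein-coding genes, so having none in a list of 20 genes says little. All 8 of these bound pathway genes had lower signals than the nearer eel-1 peak and wwp-1, and none of them was above 74.4. The eel-1 and wwp-1 peaks were picked for their high signal, so this order is a description only.

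**Figure D5:**
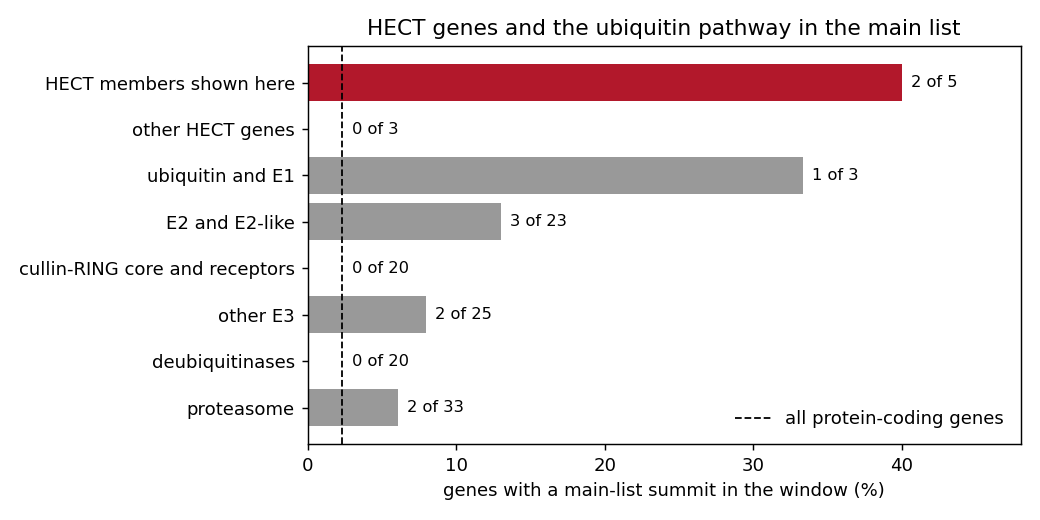
Share of genes with a main-list summit in the window (horizontal axis, percent, from 0) for the 5 HECT genes in red and for the other lists in grey, with counts beside the bars. The dashed line is the 2.33% of all protein-coding genes; the HECT genes were chosen from these peaks, so their bar is a description, and in a list of 3 genes a single gene makes 33.3%.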

How the data were processed

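Y75B8A.6 ChIP-seq was measured in 2 biological replicate libraries of L4 larvae. Per the file descriptions, the authors made each peak list on build ce11 out of the aligned reads, with 1 input file for both libraries; no source used here gives the aligner or the peak caller. The deposited signal is the peak caller's value, the deposited score follows the IDR, and the ranked lists the authors deposited also hold the −log10 of the global IDR, which was read here but not used for a call. In each ranked list the 2 signal columns of the peak sets that were compared were not used.

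Positions are 1-based. Starts came from Ensembl release 115, and the members lay at the same place in RefSeq to within 4 bp. The genes, the lists and the settings were chosen with earlier results of these data known; the repeated word and its arm settings (4 copies, 150 and 500 bp) were chosen after the sequence had been read. No test was run, because the genes were chosen from these peaks and there is 1 group. Genes named were the 5 members, other HECT genes, genes sharing or nearer to their peaks, up to 4 genes of highest signal of each pathway list and the 3 nearest in rank; ncl-1 and rps-24 were named after their values were seen. The values of 1 other HECT gene are not reported here. Of 21 listed deubiquitinase genes 20 matched the annotation by name. Window assignment was checked on 200 planted summits, all given to the same genes as by a full search. The work used pandas 2.3.3 and numpy 2.4.6 under Python 3.11.15, with figures from matplotlib 3.10.9.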

Additional observations from a re-analysis of the deposited data

How the results depend on the processing

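The presence of eel-1 and wwp-1, and of no other of the 5 genes, was the same with the conservative list, either replicate alone, peaks of at least the median signal, windows of 500 bp upstream to 100 bp downstream and of 2000 bp upstream to 500 bp downstream, starts of gene records, overlap instead of summits and the nearest protein-coding start; with the nearest start of any biotype the count fell to 1, eel-1. In the lists of single replicates, whose signals are not on the scale of the main list, the highest signal ranged from 50.4 to 82.6 for eel-1 and from 63.1 to 82.3 for wwp-1. The share of all protein-coding genes, 2.33% (466 genes), ranged from 0.891% to 0.946% with either replicate alone and was 1.97% with the conservative list, 1.34% at the median signal (267 genes), 1.49% and 3.43% with the smaller and larger window (297 and 686 genes), 2.10% with gene records, 1.84% with the nearest protein-coding start and 1.35% with the nearest start of any biotype (269 genes). At the median signal the ubiquitin and E1 genes had 0, E2 genes 1 and proteasome genes 0; the proteasome count was 0 with the conservative list and 1 with the nearest start of any biotype; other ligases had 1 with the smaller window and with either nearest-start rule. With single replicates these counts ranged over 0 (ubiquitin and E1), 1 (E2), 0 to 2 (other ligases) and 0 (proteasome). The depth behind these shares is unknown. No paired analysis was possible because both libraries are of 1 group.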
